A study of Arabidopsis thaliana with 9 samples.

Results

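The seedling transcriptome of the hda9-1 mutant (hda9) of Arabidopsis thaliana was compared with that of wild type (WT), 3 libraries against 3. The comparison takes in every gene that passed a filter on low counts, 20171 of the 29420 genes of the deposited count table. All plants were of the Col ecotype, 10 days old, and were collected as whole seedlings from MS plates in long days. The hda9 group is 1 allele of HDA9. Another genotype of the same experiment, pwr-2 (pwr), a mutant of POWERDRESS, shared the fit and served as a second reference. The labels and the title of the series give its question, the joint role of POWERDRESS and HDA9 in deacetylation of histone H3.

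HDA9 is a histone deacetylase of the RPD3 type. Enzymes of this type remove acetyl groups from lysines of histone tails, and acetylated histones mark chromatin that is being transcribed. In Arabidopsis HDA9 is known for roles in flowering, seed dormancy, leaf senescence and growth, and POWERDRESS, a protein with SANT domains, works with it in a complex.

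The 6 libraries held 6450661 to 11150773 counts, and hda9 replicate 3 was the smallest. That library stood apart in ribosomal RNA, with 251 CPM in all, where the 5 remaining libraries held 35.4 to 56.1 CPM. CPM are counts scaled to a common library size with the TMM factors of edgeR. The summed level of 49 genes of light harvesting and the Calvin cycle was 13700 to 14590 CPM in WT and 14620 to 17330 CPM in hda9. Markers of root tissues summed to 238.2 to 253.3 CPM in WT and 252.7 to 255.6 CPM in hda9, with 1 of 27 markers at 0 in both. Single root markers moved in opposite directions within this sum. LRX2 had 6 counts over the WT libraries and 132 over those of hda9, and NRT2:1 had 48 and 8. Seed and flower markers summed to 46.8 to 52.32 CPM and 52.78 to 68.49 CPM, with 4 of 26 at 0. By the rule for calls given below, 2 of 12 tested root markers were called higher and 2 lower. Of 10 tested seed and flower markers, 2 were called higher and none lower. Of all tested genes 17.6% were called higher and 16.6% lower, so neither marker list stood out in its share of rises. In whole seedlings, fewer cells of a type and less RNA per cell cannot be told apart.

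HDA9 (AT3G44680) lay at 38.4, 39.3 and 36.5 CPM in the WT libraries and at 7.16, 7.40 and 6.56 CPM in hda9, so that the groups were far apart and the mutant kept a low level of reads. Its log2 fold change was -2.42 (SE 0.09, adjusted p = 3.2e-08). Here and below, a gene is called when the adjusted p of edgeR's quasi-likelihood test is under 0.05, and a log2 fold change is hda9 against WT unless another pair is named. By this rule 34.2% of the tested genes were called, 17.6% higher and 16.6% lower in hda9. Of the calls 51.6% were higher, and with upper-quartile factors 32.9% were. The 17.6% and 16.6% are the background for each gene list described here, but they do not adjust for expression level. Across 5 classes of genes by level, 6.12% to 33.6% were called higher and 3.42% to 26.0% lower. Called genes with a log2 fold change of at least 1 made up 1.42%, and those with at most -1 made up 2.34%. In 23.4% of the tested genes all 3 hda9 libraries lay above all 3 WT libraries, and in 23% all 3 lay below.

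No tested member of the histone deacetylase family was called higher, and 3 of 15 were lower: HDA9, the sirtuin gene SRT2 and HDT4. HDA19 (HD1), another deacetylase of the RPD3 type, had 111.2, 115.0 and 116.5 CPM in WT and 104.2, 113.8 and 118.5 CPM in hda9. HDA6 had 49.5, 51.6 and 51.1 CPM in WT and 47.0, 48.7 and 50.8 CPM in hda9. Their groups overlapped, with log2 fold changes of -0.03 (SE 0.06, adjusted p = 0.714) and -0.06 (SE 0.05, adjusted p = 0.404). HDA19 was called lower with loess offsets (log2 fold change -0.15, adjusted p = 0.0106), and HDA6 was called lower with upper-quartile factors. In SRT2, 21.2% of the exon bases overlap another gene, and the call of HDT4 ended with loess offsets, with DESeq2 and without hda9 replicate 2.

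Among 14 tested genes of partner proteins, PWR itself rose, with 145.1, 144.2 and 132.8 CPM in WT and 188.1, 197.5 and 187.8 CPM in hda9 (log2 fold change 0.44, SE 0.08, adjusted p = 0.00146). SNL6, a SIN3-like scaffold protein, fell from 65.7, 67.5 and 63.5 CPM to 45.0, 55.0 and 53.3 CPM. NFC5 and MSI3 were also called lower. NFC5 lost its call with loess offsets, with DESeq2 and without hda9 replicate 2, and MSI3, at an adjusted p of 0.0475, lost it in 13 alternatives. HOS15, a WD40 partner of HDA9, was not called (log2 fold change 0.13, SE 0.09, adjusted p = 0.294). In a fit of the WT and hda9 libraries alone with the replicate number as a block, HOS15 was called higher (adjusted p = 0.031).

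Of the 13 histone acetyltransferase and adaptor genes, 4 (30.8%) were called higher and 1 (7.69%) lower. HAF2, a TAF1-type acetyltransferase, had the largest change, from 2.56, 2.51 and 2.13 CPM to 5.90, 6.74 and 4.098 CPM (log2 fold change 1.23, SE 0.22, adjusted p = 0.00131). The other calls were changes of at most 0.21 in log2 and depended on the scaling and on single libraries: with upper-quartile factors 1 was higher and 4 were lower, and leaving out 1 library at a time left 1 to 5 higher. In the blocked fit of 6 libraries, 5 were higher and 4 lower. Of 22 Polycomb and trithorax genes, 1 (4.55%) was called. RING1A, a subunit of Polycomb repressive complex 1, fell (log2 fold change -0.48, SE 0.10, adjusted p = 0.00428). Upper-quartile factors gave 4 lower. Of 40 histone genes, 3 (7.5%) were higher and 1 (2.5%) lower, the H2A gene HTA4. It went from 14.6, 14.2 and 9.21 CPM to 5.06, 3.65 and 2.95 CPM.

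The 12 leading rises are the largest among called genes that have a symbol, reach a mean of 3 in log2 CPM and whose groups do not overlap. Genes outside these limits can have larger fold changes. The transcription factor gene DREB26, of the AP2/ERF family, had 2.94, 4.24 and 5.79 CPM in WT and 59.5, 62.0 and 71.8 CPM in hda9 (log2 fold change 3.92, SE 0.16, adjusted p = 4.3e-08). ACS11, an enzyme of ethylene synthesis, had 1.23, 1.38 and 3.31 CPM in WT against 30.1, 26.4 and 27.5 CPM. XTR6, a xyloglucan-modifying enzyme of the cell wall, went from 2.37, 1.12 and 4.96 to 32.7, 33.7 and 44.3 CPM. In all 12 leading rises the 3 hda9 libraries lay above the 3 WT libraries, as that choice requires. WT replicate 3 was the highest WT library in 11 of them. The exception was SLAH3, whose highest WT value was that of replicate 2.

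PHI-1, a member of the EXORDIUM family of growth-related cell wall proteins, had 5.12, 6.40 and 12.3 CPM in WT and 75.0, 79.1 and 95.9 CPM in hda9. YUC5, a flavin monooxygenase of auxin synthesis, had 0.853, 1.12 and 3.31 CPM against 12.53, 14.1 and 11.0 CPM. XTH18 had 2.27, 2.08 and 4.61 CPM against 20.9, 20.1 and 20.8 CPM. CYP707A3, which breaks down abscisic acid, had the widest spread in WT, at 3.51, 4.58 and 19.4 CPM, against 57.5, 60.7 and 51.1 CPM in hda9. The remaining leading rises encode proteins of the cell surface, of growth and of transport.
WAKL2, a wall-associated receptor kinase, went from 2.08, 2.94 and 6.14 to 20.8, 22.8 and 23.4 CPM. IAA6, an auxin response repressor, went from 2.75, 2.16 and 3.78 to 16.4, 15.1 and 12.3 CPM. MIOX2, which oxidises inositol to glucuronate for wall polysaccharides, went from 5.21, 8.13 and 10.2 to 32.9, 40.3 and 43.3 CPM. All 3 genes had log2 fold changes between 2.32 and 2.63. SOB5, annotated as suppressor of phytochrome b 5, had 2.94, 2.77 and 3.66 CPM in WT and 16.3, 15.4 and 13.3 CPM in hda9 (log2 fold change 2.28, SE 0.18, adjusted p = 6.8e-06). SLAH3, an anion channel with a role in nitrate transport, had 29.5, 33.7 and 27.4 CPM in WT and 123.5, 129.7 and 138.0 CPM in hda9 (adjusted p = 9.1e-07). Each of the 12 kept its call in every alternative that gave it a value.

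**Figure D1:**
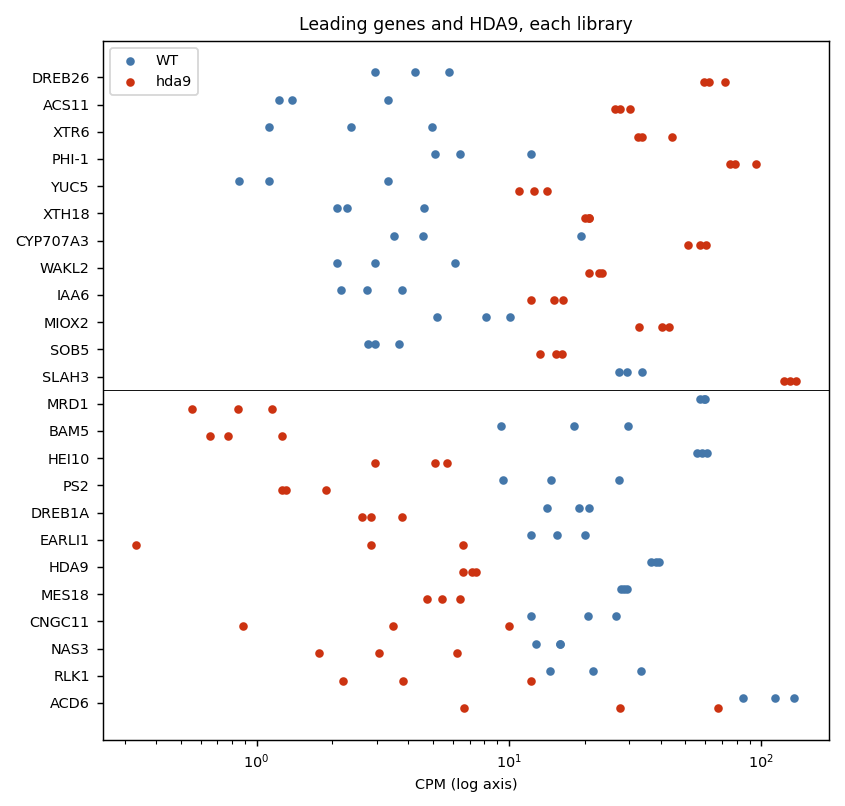
Each library's level of the 12 leading rises (above the line) and of HDA9 with the other leading falls (below the line), as CPM on a log axis. Blue points are the 3 WT libraries and red points the 3 hda9 libraries. DREB26 lies at 2.94 to 5.79 CPM in WT and 59.5 to 71.8 CPM in hda9, and MRD1 at 57.5 to 60.1 and 0.552 to 1.15 CPM.

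The 250 bases upstream of each annotated gene start were read from the reference genome and searched, on both strands, for 14 short motifs. The letters CGCGTT, the core of the rapid stress response element that calmodulin-binding CAMTA factors recognise, were singled out after the shares were seen. They stood in 2.78% of the 20090 promoters of tested genes and in 10.5% of the 286 promoters of genes called higher with a log2 fold change of at least 1. With loess offsets in place of TMM that share was 7.56%. For genes called lower at -1 or below in log2, the share was 2.97% with TMM and 4.27% with loess offsets. Among called genes it was 16.3% of 49 promoters at a log2 fold change of at least 2, 9.28% of 237 between 1 and 2, and 3.88% of 3249 between 0 and 1. On the falling side it was 2.31% of 2861 between -1 and 0, 2.44% of 369 between -2 and -1, and 4.90% of 102 at -2 or below. Within 5 classes of genes by level the share was 5.56% to 22.2% of the strong rises, against 2.49% to 3.21% of all tested genes of the class. From the lowest to the highest class, 13 of 134, 6 of 55, 2 of 36, 6 of 27 and 3 of 34 promoters of strong rises held the letters, so single classes rest on few genes. These shares are a description with no test, and genes of a family can share promoter sequence.

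The related letters CGCGTG stood in 5.59% of the promoters of strong rises and 2.87% of all, and CGCGTC in 3.5% and 1.78%. These share the CGCG core with CGCGTT and can overlap it. The W-box letters TTGACT, bound by WRKY factors, stood in 25.5% and 18.5%, and the GCC-box GCCGCC, bound by ethylene response factors, in 0.35% and 1.94%. Of the other motifs searched, the shares among strong rises and all promoters were 7.34% against 7.28% for the G-box CACGTG, 13.3% against 12% for the W-box form TTGACC, and 12.9% against 10.6% for the auxin response element TGTCTC. They were 5.24% against 5.25% for ACCGAC and 2.45% against 2.78% for GCCGAC, forms of the dehydration response element, and 46.9% against 45.8% for the TATA form TATAAA. They were 2.80% against 2.56% for the evening element AAAATATCT, 4.2% against 3.63% for the telobox AAACCCTA, and 1.05% against 2.16% for the TCP-related letters GGGCCC. PHI-1, YUC5 and XTH18 were the leading rises with CGCGTT in this window. They are printed with TCH2, a calmodulin-like touch gene with 2 palindromic sites that match on both strands, and with PS2, a leading fall that holds the same letters. The sequences are from RefSeq's TAIR10.1, 5′ to 3′ on the gene's strand and ending at the base before the annotated start, with matches in capitals.
PHI-1, chr1:12851733-12851982, plus strand: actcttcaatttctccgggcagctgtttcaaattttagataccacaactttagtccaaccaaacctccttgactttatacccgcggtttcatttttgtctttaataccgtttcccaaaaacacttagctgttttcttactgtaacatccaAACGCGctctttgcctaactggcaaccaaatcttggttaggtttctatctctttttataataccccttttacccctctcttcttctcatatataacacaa
YUC5, chr5:17650376-17650625, minus strand: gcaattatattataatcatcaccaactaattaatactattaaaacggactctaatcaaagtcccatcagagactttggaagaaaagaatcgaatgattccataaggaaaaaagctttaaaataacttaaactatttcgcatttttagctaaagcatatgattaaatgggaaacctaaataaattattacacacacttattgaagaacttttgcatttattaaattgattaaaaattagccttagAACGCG
XTH18, chr4:14827212-14827461, minus strand: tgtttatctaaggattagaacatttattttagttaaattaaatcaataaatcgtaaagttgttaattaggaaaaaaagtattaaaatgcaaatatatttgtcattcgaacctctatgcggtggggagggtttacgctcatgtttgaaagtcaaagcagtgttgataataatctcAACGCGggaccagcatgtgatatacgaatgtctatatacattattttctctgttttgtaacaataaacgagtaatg
TCH2, chr5:14999620-14999869, minus strand: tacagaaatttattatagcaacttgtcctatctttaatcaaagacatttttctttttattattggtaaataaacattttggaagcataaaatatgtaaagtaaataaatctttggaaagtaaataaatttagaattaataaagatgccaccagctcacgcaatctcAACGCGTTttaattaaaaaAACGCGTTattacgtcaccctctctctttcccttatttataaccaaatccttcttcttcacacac
PS2, chr1:27466349-27466598, minus strand: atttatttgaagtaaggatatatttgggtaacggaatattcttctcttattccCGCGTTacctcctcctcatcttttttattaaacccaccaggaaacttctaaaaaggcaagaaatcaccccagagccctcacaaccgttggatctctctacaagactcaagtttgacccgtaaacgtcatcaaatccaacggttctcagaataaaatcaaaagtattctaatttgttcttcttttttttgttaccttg

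The match began 100 bases before the start in PHI-1, 6 bases before it in YUC5 and 76 bases before it in XTH18. The 30 strong rises with the letters were of mixed kinds. They included 6 TIR-type disease resistance genes, among them AT5G41550 at 2.21 (SE 0.31) and AT1G56540 at 1.90 (SE 0.21), and the resistance gene ADR1-L2 at 1.03 (SE 0.12). They also included the ethylene synthesis gene ACS8, which rose by 2.88 in log2 (SE 0.34), EXLA1 with 2.08 (SE 0.10) and EXLA3 with 1.64 (SE 0.27). CMPG1, an elicitor-responsive ubiquitin ligase gene, had 1.65 (SE 0.16), and XT1, a xylosyltransferase that builds the side chains of xyloglucan, had 1.09 (SE 0.08). AT5G41550, AT1G56540, ADR1-L2, CMPG1, XT1 and EXLA3 were named after their values were seen. DREB26, ACS11 and XTR6 held none of these letters in their windows.

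Xyloglucan endotransglucosylase/hydrolases (XTHs) cut and rejoin the xyloglucan chains that tether cellulose in the wall. Of 33 XTH genes, 24 passed the filter on low counts, 17 of these were called higher and 2 lower, against 17.6% and 16.6% of all tested genes. Their median log2 fold change was 0.71, and that of all genes was 0.002. With loess offsets, which remove any trend with expression level, the counts were again 17 and 2, with a median of 0.65. TCH4 (XTH22), the classic touch-induced XTH, had 46.8, 53.6 and 75.9 CPM in WT and 206.3, 217.5 and 269.3 CPM in hda9 (log2 fold change 1.98, SE 0.15, adjusted p = 4.1e-06). XTH30 had 13.5, 16.7 and 17.0 CPM against 40.1, 44.4 and 44.3 CPM, and XTH17 14.7, 13.9 and 15.2 CPM against 27.0, 29.6 and 28.9 CPM. In all 3 the hda9 libraries lay above the WT libraries, as in 23.4% of all tested genes.

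The exceptions were XTH31 and XTH32. XTH31, which acts on xyloglucan as a hydrolase, fell from 70.5, 71.3 and 65.3 CPM to 40.2, 38.9 and 38.9 CPM (log2 fold change -0.81, SE 0.06, adjusted p = 5.9e-06). In pwr it stood at 63.2, 60.7 and 54.4 CPM, close under WT, and hda9 lay below pwr by a log2 difference of -0.59 (adjusted p = 0.00369). XTH32 (log2 fold change -0.20, SE 0.06, adjusted p = 0.0291), lost its call with DESeq2 and without WT replicate 1, WT replicate 2, hda9 replicate 1, hda9 replicate 2 or hda9 replicate 3. XTH31 and XTH32 belong to the same branch of the family, named here after their values were seen.

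In the EXORDIUM family 6 of 7 tested members (85.7%) rose and none fell, with a median of 0.94. EXO, which promotes growth in the brassinosteroid response, had 38.4, 41.6 and 46.4 CPM in WT and 132.5, 145.9 and 165.6 CPM in hda9 (log2 fold change 1.81, SE 0.09, adjusted p = 2e-07). EXL5 had 64.3, 65.2 and 75.0 CPM against 184.8, 190.1 and 217.3 CPM. For EXL2, EXL3 and EXL4 the log2 fold changes were 0.94, 0.86 and 0.88, with SEs of 0.13, 0.08 and 0.08. EXL7, at 1.80 to 2.59 CPM in WT and 1.11 to 2.42 CPM in hda9, had -0.14 (SE 0.34, adjusted p = 0.782). Within each group, replicate 3 had the highest value of EXO, EXL2, EXL3, EXL4 and EXL5.

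Expansins, which loosen walls without cutting them, divided by subfamily. Of 21 tested, 3 (14.3%) rose and 9 (42.9%) fell. The 3 that rose were the 3 expansin-like A genes: EXLA1 went from 19.9, 22.4 and 26.3 to 89.3, 93.9 and 107.0 CPM, and EXLA2 from 11.8, 13.4 and 15.1 to 45.8, 48.1 and 50.8 CPM. EXLA1 rose by 2.08 (SE 0.10) and EXLA2 by 1.85 (SE 0.09) in log2, both with an adjusted p = 2e-07. The 9 that fell were alpha and beta expansins, led by EXPA15, from 68.5, 61.5 and 62.7 to 38.8, 33.1 and 37.0 CPM (log2 fold change -0.82, SE 0.07, adjusted p = 6.5e-06). EXPA8 fell from 108.1, 110.0 and 100.7 to 77.6, 79.5 and 78.0 CPM. The other 7 that fell had log2 fold changes of -0.66 to -0.19, and 2 of these, EXPA20 and EXPB1, lost their calls with loess offsets.

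**Figure D2:**
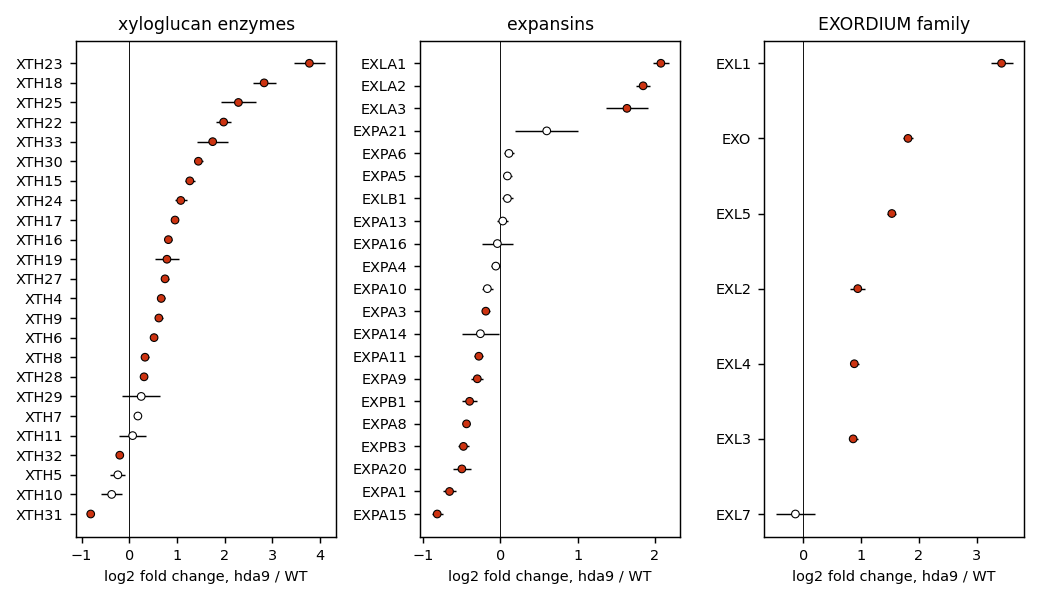
Log2 fold change of hda9 against WT for each tested member of 3 cell wall families, with SE as bars, in 3 panels with their own scales. Filled points were called and open points were not. XTH23 (XTR6) is highest among the xyloglucan enzymes at 3.78, the 3 expansin-like A genes at 1.64 to 2.08 stand apart from the other expansins, and PHI-1 is shown as EXL1 at 3.43.

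Of 13 genes of cellulose synthesis, 7 (53.8%) rose and 1 (7.69%) fell, with 4 higher without WT replicate 1 and 5 with loess offsets. Their median level was 7.42 in log2 CPM. Of the fifth of tested genes with the highest level, 33.6% were called higher and 3.42% lower. The called members of the primary wall moved by small steps, as CESA6 from 217.2, 218.9 and 230.5 to 254.0, 284.1 and 320.8 CPM (log2 fold change 0.36, SE 0.08, adjusted p = 0.00468). COB, which orients cellulose microfibrils, also had 0.36 (SE 0.07). The secondary wall synthases CESA4, IRX3 (CESA7) and IRX1 (CESA8) were not called, with log2 fold changes of 0.22, 0.16 and 0.09. In the blocked fit of 6 libraries CESA4 and IRX3 were called higher (adjusted p = 0.00089 and adjusted p = 0.0213) and IRX1 was not (adjusted p = 0.161). CESA9, a synthase best known from the seed coat, fell from 11.5, 11.9 and 13.8 to 4.95, 5.75 and 4.59 CPM (log2 fold change -1.26, SE 0.22, adjusted p = 0.00127).

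Touch and calcium genes were called mostly in the higher direction. Of 26 tested calmodulins, calmodulin-like proteins, CAMTA factors and CBP60 proteins, with TCH4, 11 (42.3%) rose and 1 (3.85%) fell. Their median log2 fold change was 0.24. CML38, a calmodulin-like protein of wounding and hypoxia, had 5.69, 5.97 and 10.7 CPM in WT and 26.8, 26.0 and 30.2 CPM in hda9 (log2 fold change 1.92, SE 0.19, adjusted p = 2.4e-05). CML35 had 63.0, 59.2 and 73.4 CPM against 115.2, 119.1 and 132.3 CPM. CBP60A, a calmodulin-binding protein of defence, had 39.5, 37.1 and 38.3 CPM against 75.8, 66.1 and 64.1 CPM. In these genes all hda9 libraries lay above all WT libraries, as in 23.4% of all tested genes.

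TCH2, whose promoter is printed above, had 30.2, 37.8 and 53.8 CPM in WT and 89.8, 90.5 and 102.8 CPM in hda9 (log2 fold change 1.23, SE 0.15, adjusted p = 0.0001). TCH3 had 1.17 (SE 0.17), and the factors CAMTA2 and CAMTA3 had 0.48 (SE 0.05) and 0.55 (SE 0.09). CAMTA1 had 0.15 (SE 0.06, adjusted p = 0.0994), and was called in the blocked fit of 6 libraries. TCH2 and TCH3 share 20.9% and 20.2% of their exon bases with other genes. CML10 was the member that fell, at -0.74 in log2 (SE 0.14). Without hda9 replicate 3, 4 members were lower, without WT replicate 2, 3 were, and in the blocked fit of 6 libraries 3 were. TCH2, TCH3, CML10 and the CAMTA genes were named after their values were seen.

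Ethylene synthesis was marked by opposite moves within 1 enzyme family. ACS11, given above, and ACS8 rose, ACS8 from 0.758, 0.605 and 1.65 to 7.06, 7.62 and 6.72 CPM. ACS4 fell from 4.36, 6.40 and 3.19 to 2.42, 1.88 and 1.80 CPM (log2 fold change -1.19, SE 0.28, adjusted p = 0.00679). All encode ACC synthases, the first committed step to ethylene. Of 22 tested genes of ethylene synthesis and signalling, 6 (27.3%) rose and 5 (22.7%) fell, and with loess offsets 3 rose and 3 fell. Leaving out WT replicate 1, WT replicate 2 or hda9 replicate 3 left 3 higher, and leaving out WT replicate 2 left 2 lower.

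Of 11 tested ethylene response factors of group IX, which act in defence, 6 (54.5%) rose and 1 (9.09%) fell. Without WT replicate 1, 2 fell. ERF6 had 20.2, 35.5 and 49.4 CPM in WT and 81.3, 77.9 and 93.8 CPM in hda9 (log2 fold change 1.28, SE 0.20, adjusted p = 0.00067). ERF104 had 37.7, 57.6 and 68.0 CPM against 86.0, 85.7 and 89.7 CPM. In both genes the WT libraries spread more widely than those of hda9. ERF15 moved the other way, from 19.3, 13.8 and 16.5 to 6.32, 7.18 and 8.69 CPM.

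In the auxin list of IAA, GH3 and SAUR genes, 15 of 42 (35.7%) rose and 5 (11.9%) fell. Beside IAA6, IAA19 had 14.3, 14.01 and 14.2 CPM in WT and 23.0, 24.6 and 27.5 CPM in hda9 (log2 fold change 0.81, SE 0.09, adjusted p = 3.8e-05). DFL1 (GH3.6), which conjugates auxin to amino acids, had 94.0, 105.6 and 110.6 CPM against 145.3, 168.2 and 185.6 CPM. SHY2 (IAA3), a repressor of auxin response, had 38.6, 39.1 and 36.1 CPM against 70.2, 71.4 and 73.1 CPM, with an overlap of 39.6% of its exon bases. The 5 that fell were 3 without WT replicate 2 or hda9 replicate 2, with loess offsets and with DESeq2, and 8 in the blocked fit of 6 libraries.

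GA2OX2, which inactivates gibberellins, had 10.8, 10.12 and 11.9 CPM in WT and 39.8, 41.4 and 38.9 CPM in hda9 (log2 fold change 1.88, SE 0.11, adjusted p = 6.2e-07). GA20OX2, a late synthesis enzyme, rose from 2.75, 4.32 and 4.25 to 12.3, 13.5 and 11.2 CPM, and GA3OX2, which makes the last step to active gibberellin, fell from 5.78, 5.45 and 5.43 to 1.05, 1.55 and 1.31 CPM. The DELLA repressor gene GAI had a smaller change, from 101.4, 101.0 and 102.7 to 126.5, 134.3 and 143.4 CPM. In all 8 of 19 (42.1%) rose and 3 (15.8%) fell.

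Of 25 brassinosteroid genes, 11 (44.0%) rose and 4 (16.0%) fell. Without WT replicate 1 or WT replicate 2 there were 6 higher and 2 lower. BRI1, the receptor, had 200, 198 and 214.3 CPM in WT and 255.7, 281.6 and 308.8 CPM in hda9. CYP72C1 (SOB7), which inactivates brassinosteroids, went from 11.2, 12.2 and 11.1 to 22.75, 22.43 and 19.01 CPM, with 34.7% of its exon bases shared. DWF4, an enzyme of brassinosteroid synthesis, rose by 0.47 in log2 (SE 0.06), with 0.10 in pwr, and the mutants differed (adjusted p = 0.0376). PRE1, a growth-promoting helix-loop-helix protein, fell from 12.51, 13.06 and 11.1 to 6.42, 6.74 and 2.79 CPM. Cytokinin genes were called in both directions, 7 higher and 7 lower of 23 (30.4% each). Without WT replicate 1, WT replicate 2 or hda9 replicate 3, 4 were lower. The synthesis gene IPT3 and the receptor gene WOL (AHK4) fell, with -0.85 (SE 0.11) and -0.60 (SE 0.08), while LOG7, which activates cytokinins, and the degradation gene CKX7 rose, with 1.07 (SE 0.16) and 0.51 (SE 0.07).

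Stress transcription factors were called in both directions: 9 of 24 zinc finger, DREB and related MYB genes (37.5%) rose and 6 (25.0%) fell. MYB70, a repressor-type MYB factor, had 21.2, 24.7 and 26.1 CPM in WT and 68.9, 70.4 and 65.4 CPM in hda9 (log2 fold change 1.52, SE 0.07, adjusted p = 2e-07). MYBR1 (MYB44) had 49.3, 51.7 and 72.7 CPM against 124.7, 123.7 and 149.7 CPM, and shares 48.4% of its exon bases. CBF3 (DREB1A), the cold-induced activator, fell from 18.95, 20.75 and 14.17 to 2.84, 3.76 and 2.62 CPM. CBF3 lay lower in hda9 than in pwr, by a log2 difference of -1.39 (adjusted p = 0.0337).

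Of 54 tested WRKY factors, 10 (18.5%) rose and 5 (9.26%) fell, against 17.6% and 16.6% of all tested genes. Counts of lower members were 10 without hda9 replicate 3, 12 with upper-quartile factors and 15 in the blocked fit of 6 libraries. WRKY18 had 19.1, 14.9 and 22.1 CPM in WT and 44.3, 43.6 and 59.8 CPM in hda9. WRKY54, a defence and senescence regulator, had 35.2, 29.6 and 30.7 CPM against 11.2, 10.8 and 18.5 CPM. WRKY11 rose, with 0.47 (SE 0.07), and WRKY23, an auxin-responsive factor, fell, with -1.16 (SE 0.19).

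**Figure D3:**
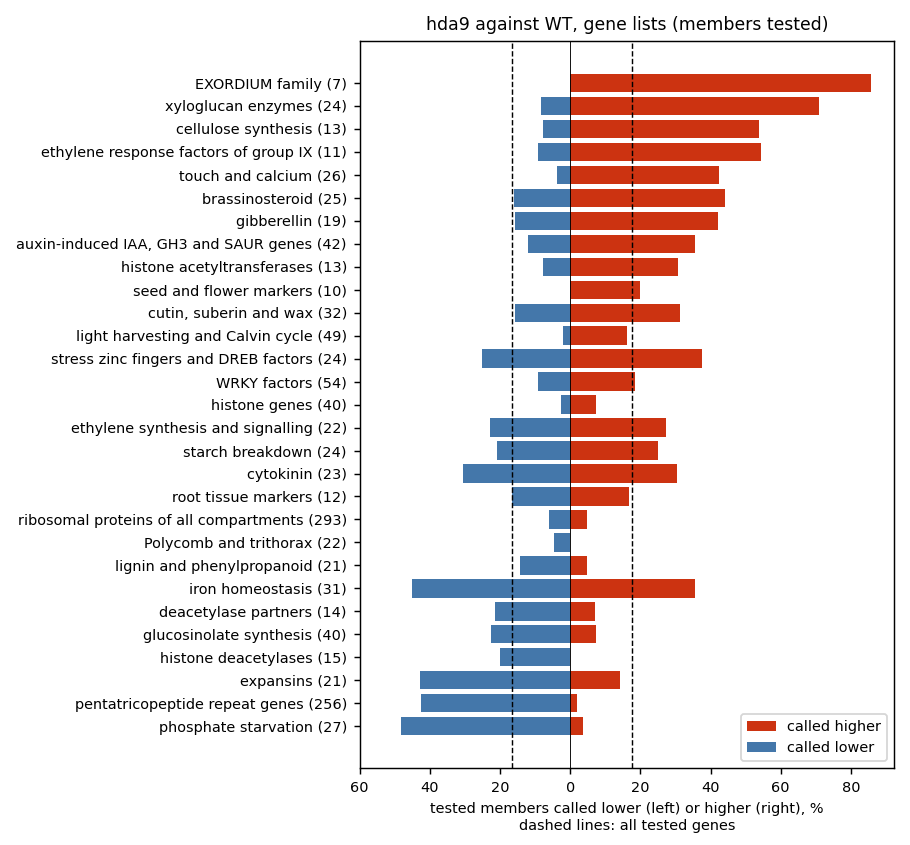
Share of tested members called higher (red, right) and lower (blue, left) in hda9 for each gene list, with the number of tested members in brackets and the shares of all tested genes, 17.6% and 16.6%, as dashed lines. The EXORDIUM family and the xyloglucan enzymes lie farthest towards higher, at 85.7% and 70.8%, and the phosphate starvation list farthest towards lower, at 48.1%.

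The leading falls, chosen by the same limits, include 2 overlapping genes on chromosome 1. MRD1 (AT1G53480, minus strand, chr1:19963047-19964712) had 634, 665 and 505 counts in WT and 8, 5 and 7 in hda9. HEI10 (AT1G53490, plus strand, chr1:19963267-19966952), which acts in meiotic crossover formation, had 617, 647 and 517 counts against 54, 46 and 18. In pwr the counts were 485, 535 and 453 for MRD1 and 474, 513 and 461 for HEI10, so that in log2 hda9 lay below pwr by -6.09 (adjusted p = 4e-10) and -3.53 (adjusted p = 2.4e-08). MRD1 shares 89.8% of its exon bases with other genes and HEI10 41.3%, so the reads of the pair cannot be told apart with certainty. The genes on either side changed far less. MSL4 next to MRD1 was lower (log2 fold change -0.52, SE 0.14, adjusted p = 0.0152) as was MUM4 next to HEI10 (-0.18, SE 0.06, adjusted p = 0.0419).

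The other leading falls fell into enzymes, a cold regulator and defence genes. BAM5, a beta-amylase of the cytosol, had 9.29, 29.7 and 18.1 CPM in WT and 1.26, 0.773 and 0.656 CPM in hda9 (log2 fold change -4.34, SE 0.46, adjusted p = 4.4e-05). PS2, an inorganic pyrophosphatase induced by phosphate starvation, had 9.48, 27.4 and 14.8 CPM against 1.26, 1.88 and 1.31 CPM. MES18, a methyl esterase, had 27.8, 29.3 and 28.6 CPM against 6.42, 5.41 and 4.75 CPM, with 28.2% of its exon bases shared. In BAM5 and PS2 the WT libraries were widely spread, with replicate 2 the highest.

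The remaining falls were uneven among the mutant libraries. ACD6, an ankyrin protein of salicylic acid defence, had 134.8, 84.8 and 113.5 CPM in WT and 27.5, 6.63 and 67.4 CPM in hda9 (log2 fold change -1.83, SE 0.44, adjusted p = 0.00752), and lost its call with DESeq2. RLK1, a receptor-like kinase, had 33.5, 14.5 and 21.6 CPM against 3.79, 2.21 and 12.3 CPM. CNGC11, a cyclic nucleotide-gated channel, had 26.7, 12.3 and 20.7 CPM against 3.48, 0.884 and 10.0 CPM. EARLI1, a lipid transfer protein of cold and defence responses, had 20.1, 15.5 and 12.3 CPM against 2.84, 0.331 and 6.56 CPM. In these 4 genes hda9 replicate 3 was the highest mutant library and hda9 replicate 2 the lowest. Whether the difference of hda9 replicate 3 in ribosomal RNA has a part in this was not tested.

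Of 27 tested genes of phosphate starvation, 13 (48.1%) fell, 1 (3.7%) rose and 13 were not called. Their median log2 fold change was -0.32. With loess offsets 14 fell and 1 rose. PAP17, a purple acid phosphatase, had 38.7, 44.2 and 36.8 CPM in WT and 22.4, 21.7 and 20.3 CPM in hda9 (log2 fold change -0.89, SE 0.13, adjusted p = 0.00032). MGDC (MGD3), which makes galactolipids that replace phospholipids, had 9.76, 20.2 and 14.3 CPM against 2.63, 4.86 and 3.28 CPM. PPCK1, a kinase of phosphoenolpyruvate carboxylase, had 60.5, 61.4 and 61.6 CPM against 45.5, 43.8 and 41.3 CPM, with 22.0% of its exon bases shared. The root phosphate transporter gene PHT1;4 fell by 1.04 on the log2 scale (SE 0.20, adjusted p = 0.00265), and the starvation repressor gene SPX1 fell by 0.32 (SE 0.08, adjusted p = 0.00941). SPX4, an inhibitor of the response under sufficient phosphate, was the member that rose, with 0.43 (SE 0.08, adjusted p = 0.00196). PHR1, the central activator, had 0.15 (SE 0.05, adjusted p = 0.0546), and was called in the blocked fit of 6 libraries. In the blocked fit of 6 libraries 3 members rose. PHT1;4, SPX1, SPX4 and PHR1 were named after their values were seen.

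Of 31 tested genes of iron homeostasis, 11 (35.5%) rose and 14 (45.2%) fell, and with loess offsets 11 rose and 12 fell. The 4 bHLH factors of subgroup Ib, which are induced when iron is short, all rose. BHLH38 had 1.99, 3.46 and 3.54 CPM in WT and 15.5, 14.4 and 15.4 CPM in hda9 (log2 fold change 2.33, SE 0.22, adjusted p = 1.6e-05), with 35.7% of its exon bases shared. BHLH101 had 7.86, 11.3 and 11.1 CPM against 25.7, 24.3 and 27.9 CPM. BHLH39 rose by 2.38 in log2 (SE 0.34) and BHLH100 by 1.95 (SE 0.20). IMA1, IMA2 and IMA3, small peptides that promote iron uptake, rose by 0.68, 0.64 and 0.34 in log2, with SEs of 0.14, 0.14 and 0.10. FIT, the bHLH partner of the Ib factors in the root uptake response, fell, with -1.52 (SE 0.26, adjusted p = 0.00118).

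Ferritins store iron, and nicotianamine is a chelator that carries it between tissues. All 4 ferritin genes were called lower, led by FER4, from 58.2, 59.2 and 63.9 CPM to 34.5, 33.1 and 37.7 CPM (log2 fold change -0.79, SE 0.06, adjusted p = 6e-06). FER2 lost its call in 7 alternatives. YSL1, a transporter of iron-nicotianamine, fell from 45.3, 43.8 and 43.1 CPM to 20.9, 22.2 and 20.7 CPM (log2 fold change -1.05, SE 0.07, adjusted p = 2.2e-06). NAS3, a nicotianamine synthase, fell from 16.0, 12.8 and 15.9 CPM to 3.05, 1.77 and 6.23 CPM, while NAS1 and NAS4 fell less, at -0.80 (SE 0.10) and -0.29 (SE 0.07) in log2. Members of the iron list beyond YSL1, FER4, BHLH38, BHLH101 and NAS3 were named after their values were seen.

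The iron list also held genes on which the mutants differed. Of all tested genes 0.421% were called between hda9 and pwr, and of the 31 iron genes 7 were, 4 higher and 3 lower in hda9. The number of calls between the mutants over all genes moved widely when single libraries were left out, as given below. Apart from YSL1, the iron calls had adjusted p of 0.0151 to 0.0497 in the quasi-likelihood test. How many of the 7 stay called in the alternatives is not given here. YSL1 stood at 41.9, 39.5 and 35.4 CPM in pwr, and the log2 difference of hda9 from pwr was -0.87 (adjusted p = 0.0003). NAS3 stood at 17.97, 14.4 and 8.31 CPM in pwr, a difference of -1.97 (adjusted p = 0.0434). BHLH38 stood at 4.43, 6.88 and 4.67 CPM in pwr, between WT and hda9, a difference of 1.49 (adjusted p = 0.0151). BHLH100 and BHLH101 differed by 1.25 (adjusted p = 0.0225) and 0.66 (adjusted p = 0.0497), the reductase gene FRO3 by 0.43 (adjusted p = 0.0434) and the chloroplast reductase gene FRO7 by -0.42 (adjusted p = 0.0204). FIT had -1.52 in hda9 and -1.60 in pwr. The log2 fold changes of both mutants use the same WT libraries.

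**Figure D4:**
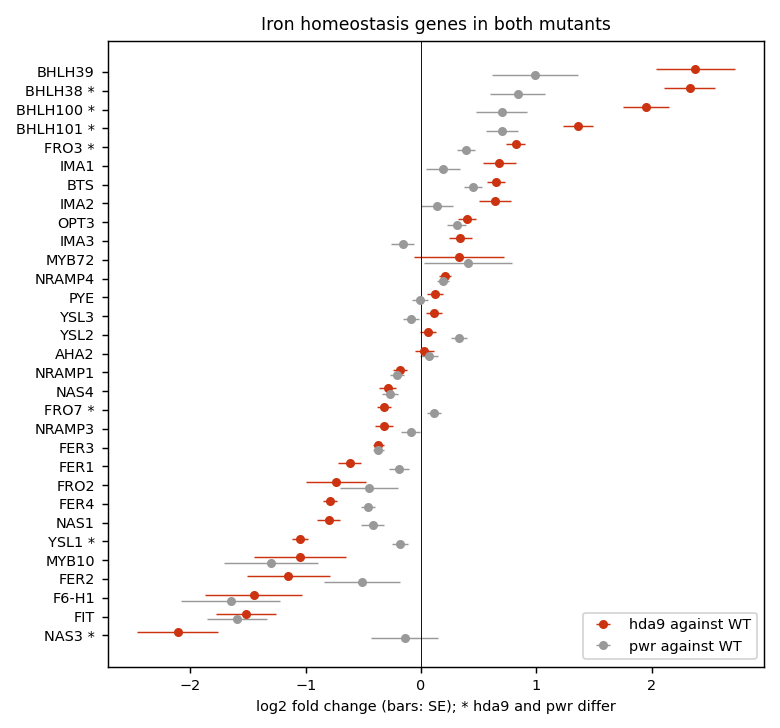
Log2 fold change against WT of the tested genes of iron homeostasis in hda9 (red) and pwr (grey), with SE as bars and an asterisk where the mutants differed. BHLH38 lies at 2.33 in hda9 and 0.84 in pwr, and YSL1 at -1.05 and -0.18.

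Of 32 genes of cutin, suberin and wax, 10 (31.2%) rose and 5 (15.6%) fell. GPAT3, an acyltransferase, had 61.0, 70.4 and 74.9 CPM in WT and 155.0, 168.5 and 172.6 CPM in hda9 (log2 fold change 1.27, SE 0.08, adjusted p = 1.1e-06). GPAT2 had 5.97, 6.57 and 7.79 CPM against 23.6, 25.2 and 24.1 CPM, and KCS1, an elongase of very long fatty acids, 58.4, 63.3 and 71.4 CPM against 120.3, 127.3 and 143.4 CPM. The count of lower members was 8 with loess offsets, 9 with upper-quartile factors and 9 in the blocked fit of 6 libraries.

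Of 40 genes of glucosinolate synthesis, 3 (7.5%) rose and 9 (22.5%) fell. MYB51, an activator of indole glucosinolates, had 30.7, 27.3 and 38.9 CPM in WT and 59.0, 61.3 and 60.8 CPM in hda9 (log2 fold change 0.92, SE 0.11, adjusted p = 0.00011), and CYP79B3 of the same branch had 0.51 (SE 0.07). FMO GS-OX3, which oxidises side chains of aliphatic glucosinolates, fell from 68.3, 67.0 and 66.7 CPM to 49.9, 55.5 and 52.0 CPM. With loess offsets 17 fell, and in the blocked fit of 6 libraries 8 rose. Leaving out WT replicate 3 or hda9 replicate 1 gave 6 and 7 higher.

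Counts for the next lists moved with the scaling or with single libraries. Of 24 genes of starch breakdown 6 (25.0%) rose and 5 (20.8%) fell, and with loess offsets 2 rose and 9 fell. BAM6 fell from 39.1, 39.3 and 37.0 CPM to 25.7, 29.8 and 29.7 CPM. Of 21 genes of lignin and phenylpropanoids 1 (4.76%) rose and 3 (14.3%) fell, and with loess offsets 10 fell. 4CL3, a ligase of flavonoid supply, fell from 29.7, 34.9 and 32.9 CPM to 15.5, 21.8 and 18.2 CPM (log2 fold change -0.82, SE 0.12, adjusted p = 0.0005). Of the 49 genes of light harvesting and the Calvin cycle 8 (16.3%) rose and 1 (2.04%) fell. With loess offsets 1 rose and 9 fell, so no direction is given for the list. Leaving out 1 library at a time gave 4 to 22 higher.

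Pentatricopeptide repeat (PPR) genes, whose proteins process RNA in mitochondria and chloroplasts, numbered 256 among the tested genes. Of these, 109 (42.6%) fell and 5 rose, against 16.6% and 17.6% of all tested genes, and the median log2 fold change was -0.27. Their median level was 4.17 in log2 CPM, against 5.15 for all tested genes. In the class of tested genes at 3.37 to 4.71 in log2 CPM, 26.0% were called lower and 7.98% higher. With loess offsets 74 of the 256 PPR genes fell and 3 rose, with a median of -0.17. Of all tested genes 14.6% were called lower and 16.3% higher with loess offsets. Of 293 ribosomal protein genes 14 (4.78%) rose and 18 (6.14%) fell. The blocked fit of 6 libraries gave 48 higher, and upper-quartile factors gave 37 lower. Leaving out 1 library at a time gave 5 to 26 higher.

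The direction of change followed the expression level over the whole table. In 5 equal classes of genes from the lowest to the highest mean level, the median log2 fold change was -0.26, -0.13, -0.03, 0.05 and 0.12. The share called higher was 6.12%, 7.98%, 14.7%, 25.8% and 33.6%, and the share called lower 21.6%, 26.0%, 20.3%, 11.4% and 3.42%. Loess offsets remove such a trend by construction, and with them 12.4% to 18.7% of each class were higher and up to 16.9% lower. The 2 lowest classes together took 10.15%, 10.02% and 9.661% of the counts in the WT libraries and 9.246%, 8.45% and 7.71% in the hda9 libraries, where hda9 replicate 3 was lowest. The part of library quality in this trend was not tested. Of the called genes beyond 1 or -1 in log2 fold change, 37.7% were higher, and with loess offsets 62.8%.

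**Figure D5:**
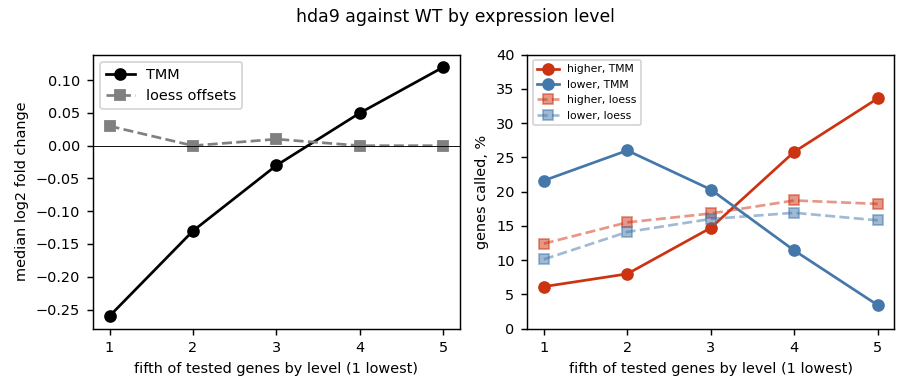
Median log2 fold change (left) and share of tested genes called higher or lower in hda9 (right) within 5 classes of mean expression level, with TMM factors (circles) and with loess offsets (squares). With TMM the share called higher goes from 6.12% to 33.6% from the lowest to the highest class, and with loess offsets it stays between 12.4% and 18.7%.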

How the data were processed

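Polyadenylated RNA of whole seedlings was sequenced as stranded libraries, per the labels' protocols, in 9 libraries of 3 genotypes with 3 biological replicates each. The authors deposited a table of raw read counts per gene, whole numbers that are not normalized. The submitters' processing notes list HISAT2 and the TAIR10 build. The counting tool, its strand setting and its treatment of duplicates and shared reads are not given in the sources used here.

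Genes were filtered with filterByExpr, scaled with TMM and tested with edgeR 4.0.16 (R 4.3.3, limma 3.58.1) by the quasi-likelihood F test in 1 model of all 9 libraries, with Benjamini-Hochberg adjustment over 20171 genes. Of 29420 genes, 4396 had no count. SE is the absolute log2 fold change over the square root of F. The script was tested on simulated data. At these depths 3 counts are 0.269 to 0.465 CPM. Symbols and promoters of 250 bases come from RefSeq's TAIR10.1. Shares of exon bases overlapping another gene come from the same annotation.

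The gene lists and tests were chosen with earlier results of these data known. Named genes were HDA9, the 12 strongest changes each way (called, bearing a symbol, averaging 3 or more in log2 CPM, groups apart), the best 4 calls of each list by adjusted p, and all members of lists of at most 20. Others were chosen after their values were seen, including any list member given only by a log2 fold change that these rules do not name. Alternatives were upper-quartile, RLE and loess scaling, DESeq2 1.42.0, other filters, the 6 libraries alone, a replicate block and leaving out each library.

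Replicate numbers are shared in the labels. Same-numbered WT and hda9 libraries deviated together, with correlations of 0.359, 0.448 and 0.456, and those of different numbers had -0.53 to 0.196. For same-numbered WT and pwr libraries the correlations were -0.123, -0.0137 and -0.128, and for hda9 and pwr -0.221, -0.189 and -0.241. Whether the numbers mark pairs of libraries was not tested, and the main model holds genotype only.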

Additional observations from a re-analysis of the deposited data

Results flagged for a closer look

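The following 11 named genes differed between the mutants in the log2 fold change against WT, by the test of hda9 against pwr in the same model. HDA9 itself differed by -2.20. MRD1 differed by -6.09 and HEI10 by -3.53, and both were near their WT level in pwr. DREB1A (CBF3) differed by -1.39, with a fall in both mutants. NAS3 differed by -1.97, with 17.97, 14.4 and 8.31 CPM in pwr against 3.05, 1.77 and 6.23 CPM in hda9. PWR, the gene mutated in pwr, differed by 1.97. XTH31 differed by -0.59, YSL1 by -0.87 and DWF4 by 0.37. The iron factors bHLH38 and BHLH101 differed by 1.49 and 0.66.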

How the results depend on the processing

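Against 3558 genes higher and 3339 lower, upper-quartile factors gave 2368 higher and 4824 lower, with a median log2 fold change of -0.08 over all genes, and DESeq2 gave 2932 higher and 2154 lower. Genes lower with a log2 fold change of at most -1 numbered 472, and 235 with loess offsets. Genes called between hda9 and pwr numbered 85, 160 with loess offsets, 179 with DESeq2, 179 with no filter, and 9 to 252 when 1 library was left out. Leaving out 1 library gave 2567 to 3744 higher and 2365 to 3393 lower. The cause was not tested. With the replicate number as a block, 3571 were higher and 3330 lower in the fit of 9 libraries, and 4771 and 4701 in the fit of 6, which kept 6874 of the 6897 calls. Of 168 named genes, 132 were called, 112 of these under every alternative that gave a value, and none reversed. Calls were lost for 16 with loess offsets, 8 with DESeq2, 5 without hda9 replicate 3 and 0 in the blocked fit of 6 libraries. Depth limits genes near 3 counts, such as IPS1 and PAP14.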

Other observations

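Disease resistance genes of the TIR-NBS-LRR and TIR-NBS classes, immune receptors that sense pathogen effectors, were examined after their values were seen. Of 81 tested, 30 (37.0%) rose and 11 (13.6%) fell, against 17.6% and 16.6% of all tested genes. With loess offsets 26 rose and 11 fell. AT1G63750 rose by 1.62 in log2 (SE 0.13, adjusted p = 5.7e-06) and AT4G19520 by 1.19 (SE 0.11, adjusted p = 1.2e-05). AT1G17600 fell, with -1.65 (SE 0.16, adjusted p = 2e-05), and 48.3% of its exon bases overlap AT1G17610 on the other strand, which had -1.47 (SE 0.20, adjusted p = 0.00022). Of the 9 that rose with a log2 fold change of at least 1, 6 held CGCGTT in the promoter window, and 11.1% of the 81 promoters did. These 6 are among the 30 strong rises with the letters described above, so they are not a separate observation. The letters and this family were both picked after values were seen, and genes of a family can share promoter sequence. Of 38 CC-NBS-LRR and NB-ARC genes 6 (15.8%) rose and 11 (28.9%) fell. Reads shared between similar members of these families were not assessed.

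A pair of genes had counts in 1 genotype and none in another. AT5G15420 had 0 counts in each WT and each pwr library and 43, 58 and 36 counts in hda9, at least 54.0-fold higher against 3 counts over the WT group (adjusted p = 5.5e-05). AT3G25240 had 18, 28 and 13 counts in WT, 0 in each hda9 library and 4, 5 and 0 in pwr, at least 16.6-fold lower in hda9 (adjusted p = 0.00123).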
